A study of Mus musculus with 32 samples.

Results

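Chromatin accessibility was compared between the anterior and the posterior side of the hindlimb bud of mouse embryos that overexpress Etv2. Of the 32 ATAC-seq libraries of the series, 6 belong to this comparison: the libraries labelled Etv2_OE, whose label number ends in A (anterior, n = 3) or P (posterior, n = 3), from embryos 7, 9 and 10. The embryos carried HoxB6-Cre, iHA-Etv2 and ROSA26-STOP-rtTA-IRES-EGFP, each as 1 transgenic allele, and their dams received doxycycline. In this design Cre made under the HoxB6 promoter removes a stop cassette, the reverse transactivator is then made in those cells, and doxycycline turns on HA-tagged ETV2, so that not every cell of a side makes it. The 8 control libraries, labelled WT_Control, are the anterior and posterior sides of embryos 1 to 4, littermates that lacked a transgene needed for induction but were exposed to the same doxycycline. All 14 libraries are labelled E10.5, although the methods of the study describe a later harvest. The sides of an embryo share its number, and here the number pairs them.

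The limb bud is patterned along its anterior-posterior axis by Sonic hedgehog (SHH), which is made in the zone of polarizing activity at the posterior margin under the control of a distant enhancer, the ZRS. SHH keeps GLI3 from being processed to its repressor form, which otherwise holds down hedgehog targets in anterior cells, while HAND2 and the 5′ HOXD proteins act posteriorly and GLI3, a zinc finger factor, and homeodomain factors such as ALX4 act anteriorly. ETV2 is an ETS family transcription factor best known for starting the endothelial and blood lineages, and ETS factors bind sites with a GGAA core, several of which lie in the ZRS.

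The measurement was the list of MACS2 peak summits of each library, each with the −log10 of its q-value. The anterior lists of Etv2-overexpressing embryos 7, 9 and 10 held 37164, 32670 and 37997 summits, and the posterior lists 47054, 38152 and 38730. The anterior list was the shorter one in 3 of 3 embryos (35943.7 ± 2865.5 against 41312.0 ± 4981.1, SD, n = 3; exact permutation test, two-sided, p = 0.1, the smallest p that 3 against 3 can give). In control embryos the same direction was seen in 4 of 4 (43531.2 ± 2045.7 against 53079.8 ± 1546.5 summits, SD, n = 4; exact permutation test, two-sided, p = 0.0286). Read counts were not used here, so the depth behind the lists is unknown, and a site missing from a list was not detected at that depth. To set the lists on a common length, the 30000 highest-ranked summits of each were used. Each 200-bp interval then received a rank score in every library, which runs from near 1 for the top of the list to near 0 for its end and is 0 where no summit lay within 200 bp of its centre. Promoters (within 1 kb of a start) made up 38.3% ± 0.456 of the intervals listed in anterior and 37.9% ± 0.644 of those in posterior overexpression libraries (SD, n = 3; exact permutation test, two-sided, p = 0.6). Their GC content was 55.2% ± 0.246 and 55.3% ± 0.0894 (exact permutation test, two-sided, p = 0.8, n = 3). Neither difference exceeded the spread at equal length. Over whole lists, which differ in length, the promoter share was 35.0% ± 1.68 in anterior and 31.6% ± 2.63 in posterior overexpression libraries (exact permutation p = 0.1, n = 3) and 30.9% ± 0.867 against 26.5% ± 0.632 in controls (exact permutation p = 0.0286, n = 4).

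The sequences of 6 intervals are shown first as examples of those described below: 3 posterior ones, 2 anterior ones, of which the Pax9 interval did not pass the test, and the interval with the largest difference at Ptch1, a marker locus, which did not pass it either. Each line is the 200 bp of an interval on the plus strand of GRCm38.p6, the assembly of mm10. Capitals mark the words CAATAAA, a binding word of the posterior HOX13 proteins, and ATAAAA in the posterior intervals, and AATTAG in the anterior ones, on either strand; these words are taken up below. CAATAAA and ATAAAA can overlap.
Rpia interval, chr6:70356413-70356612: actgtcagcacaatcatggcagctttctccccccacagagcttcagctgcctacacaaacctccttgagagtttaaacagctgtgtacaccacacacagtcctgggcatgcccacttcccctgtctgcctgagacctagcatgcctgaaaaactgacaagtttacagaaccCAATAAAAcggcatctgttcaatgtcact
Isl1 interval, chr13:116143215-116143414: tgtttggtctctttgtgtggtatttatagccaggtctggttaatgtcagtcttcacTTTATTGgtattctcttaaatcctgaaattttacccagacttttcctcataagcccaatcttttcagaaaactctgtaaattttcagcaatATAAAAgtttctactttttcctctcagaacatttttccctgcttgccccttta
Hoxd12 interval, chr2:74673858-74674057: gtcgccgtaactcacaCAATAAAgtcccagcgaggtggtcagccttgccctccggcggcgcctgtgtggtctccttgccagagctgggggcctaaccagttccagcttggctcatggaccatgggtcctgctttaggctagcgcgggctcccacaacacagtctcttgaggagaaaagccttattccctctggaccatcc
Xrcc2 interval, chr5:25666206-25666405: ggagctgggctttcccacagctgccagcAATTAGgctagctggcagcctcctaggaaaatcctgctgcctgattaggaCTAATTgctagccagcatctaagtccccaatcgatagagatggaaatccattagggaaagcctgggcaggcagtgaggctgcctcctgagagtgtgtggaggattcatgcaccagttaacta
Pax9 interval, chr12:56718541-56718740: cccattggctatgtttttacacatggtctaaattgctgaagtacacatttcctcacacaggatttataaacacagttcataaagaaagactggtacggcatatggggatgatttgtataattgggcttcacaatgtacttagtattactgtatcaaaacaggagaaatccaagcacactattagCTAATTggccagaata
Ptch1 interval, chr13:63525330-63525529: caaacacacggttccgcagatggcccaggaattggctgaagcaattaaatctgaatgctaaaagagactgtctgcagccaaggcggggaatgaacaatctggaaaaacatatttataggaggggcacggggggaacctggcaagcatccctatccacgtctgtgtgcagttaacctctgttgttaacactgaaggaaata
The Rpia and Isl1 intervals each hold both posterior words, the Hoxd12 interval holds CAATAAA alone, and the Xrcc2 interval holds AATTAG at 2 places. None of these words was found in the Ptch1 interval. The examples were chosen to show the words, each of which most called intervals lack: CAATAAA was in 10 of the 57 called posterior intervals, and those named below at Sgcz, Sfswap, Hif1a, Fam174a and Gcfc2 hold none of the 3.

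The first question was which sites differ between the sides when Etv2 is overexpressed. Most of the called sites lay far from gene starts. Of 55303 intervals tested with limma on the rank scores, 55 were higher in anterior (0.0995%) and 57 higher in posterior overexpression sides (0.103%) at a Benjamini-Hochberg adjusted p under 0.05. Only 6 of the 55 (10.9%) and 4 of the 57 (7.02%) were promoters, against 30.6% of all tested intervals, and their median distance to the nearest protein-coding start was 101 kb and 70.3 kb, against 21.8 kb. A call does not always mean a site open on 1 side only. At the called intervals nearest to Glrb, Adamtsl1, Atp2b1 and Hace1, the lower side scored 0. Yet all 3 of its libraries had a summit within 500 bp. The calls depended on the fit, in which all 14 libraries share the spread. With the embryo as a block, 1 interval was called in each direction, at the promoters of Larp7 and Snai2 (limma adjusted p = 0.000423 and 0.00696, the second 0.164 without the block), where the other side had a summit within 500 bp in 3 of 3 libraries. In a fit of the 6 overexpression libraries alone no interval was called with limma, while 3546 of 41905 had an unadjusted p under 0.05. The near-equal split of the calls was not stable. Leaving out anterior library 7, 9 or 10 gave 301, 171 and 211 anterior against 89, 62 and 68 posterior calls, leaving out posterior library 7, 9 or 10 gave 74, 82 and 81 against 220, 228 and 199, and whole lists gave 41 against 82. Leaving out control_anterior 4 or any 1 posterior control library gave between 41 and 61 calls in all. Unadjusted, 3179 of 55303 intervals (5.75%) were higher in anterior and 3115 (5.63%) in posterior sides in the 14-library fit.

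Among the 57 called posterior intervals, the one with the largest difference lay between genes on chromosome 6, 436 kb from the start of Rpia, a pentose phosphate pathway enzyme. Its rank scores in embryos 7, 9 and 10 were 0.95, 0.88 and 0.79 in posterior libraries, and it was listed in no anterior one (difference −0.88, SE 0.10, limma adjusted p = 0.00674). Control embryos 1 to 4 gave 0.83, 0.94, 0.83 and 0.89 in posterior libraries and again no anterior summit. The site was therefore listed in all 7 posterior libraries and no anterior one. An interval in an intron of Sgcz, a sarcoglycan gene, was listed at 0.90, 0.86 and 0.84 in posterior overexpression libraries, at 0.69, 0.76, 0.86 and 0.76 in posterior control libraries, and in no anterior library (overexpression difference −0.87, limma adjusted p = 0.00674). Further posterior intervals with a rank score difference between −0.86 and −0.74 were nearest to Isoc1, Sfswap, Hif1a, the hypoxia-inducible factor, Fam174a, Nt5e, which makes extracellular adenosine, and Gcfc2. At Sfswap all 3 anterior libraries had a summit within 500 bp, so there the sides differed in where the summit was placed. Another called interval, 112 kb from Nt5e, was higher in anterior sides (difference 0.76, limma adjusted p = 0.00747). That interval was called in control embryos too (0.46, limma adjusted p = 0.0342), and the posterior Nt5e interval was not (limma adjusted p = 0.183).

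Among intervals higher in anterior sides, the interval 390 kb from Kcnh7, a potassium channel gene, had rank scores of 0.84, 0.79 and 0.94 in anterior libraries of embryos 7, 9 and 10 and was listed in no posterior one (difference 0.86, SE 0.13, limma adjusted p = 0.0179). An intron of Pappa, whose protease frees insulin-like growth factors, gave 0.84, 0.79 and 0.87 against no posterior listing (difference 0.83, limma adjusted p = 0.0164). The site 404 kb from Zic1, a zinc finger transcription factor gene, was listed at 0.64, 0.82 and 0.85 in anterior overexpression libraries, at 0.85, 0.64, 0.84 and 0.72 in anterior control libraries, and in no posterior library of either kind. Intervals nearest to Dtd1, C9orf72, Xrcc2 and Rorb, a nuclear receptor gene, had differences of 0.82, 0.78, 0.77 and 0.76. Of these 7, the Xrcc2 interval was called under overexpression alone, with a control difference of 0.52 and a limma adjusted p of 0.0632 there. The highest difference of all (0.94) was at the promoter of Larp7, and it came from a shift of the summit. Anterior overexpression libraries scored 0.96, 0.92 and 0.95 and posterior ones 0, yet all 3 posterior libraries had a summit within 500 bp, and with that reach the difference was −0.00649.

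The second question was which anterior-posterior differences of control embryos hold under overexpression. Most kept their direction. In control embryos 115 intervals were higher in anterior (0.208%) and 143 higher in posterior sides (0.259%; limma, adjusted p under 0.05, 55303 tested). These calls too depended on the fit. There was 1 call with the embryo as a block and none with limma on the 8 control libraries alone (5451 of 45415 at an unadjusted p under 0.05). With 1 library left out there were between 47 and 302, the fewest without posterior control library 4. The split moved as well, to 191 anterior and 906 posterior calls with whole lists and to 9 and 25 with 15000 summits. Of the 115, the overexpression difference had the same sign in 99 and the opposite sign in 10, and 75 also had an unadjusted p under 0.05 there. Of the 143, 128 had the same sign and 8 the opposite one, and 106 had an unadjusted p under 0.05. Over all tested intervals the sign was the same in 56.2%, where a difference of 0 in either condition counted as not the same. Under overexpression 47.6% of the differences were above 0 and 46.2% below it. The median difference of the 115 was 0.593 in control and 0.443 in overexpression libraries, and that of the 143 was −0.596 and −0.458. The control medians are those of the libraries that chose the intervals.

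In the anterior libraries of embryos 7, 9 and 10, 85.2%, 79.1% and 80.0% of the 115 anterior intervals were listed, and in their posterior libraries 33.0%, 27.8% and 34.8%. Of the 143 posterior intervals, 88.8%, 88.1% and 86.7% were listed in posterior and 45.5%, 45.5% and 35.7% in anterior overexpression libraries. Each embryo thus kept the direction of the controls in both sets, as the plot of listed intervals by library shows.

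**Figure D1:**
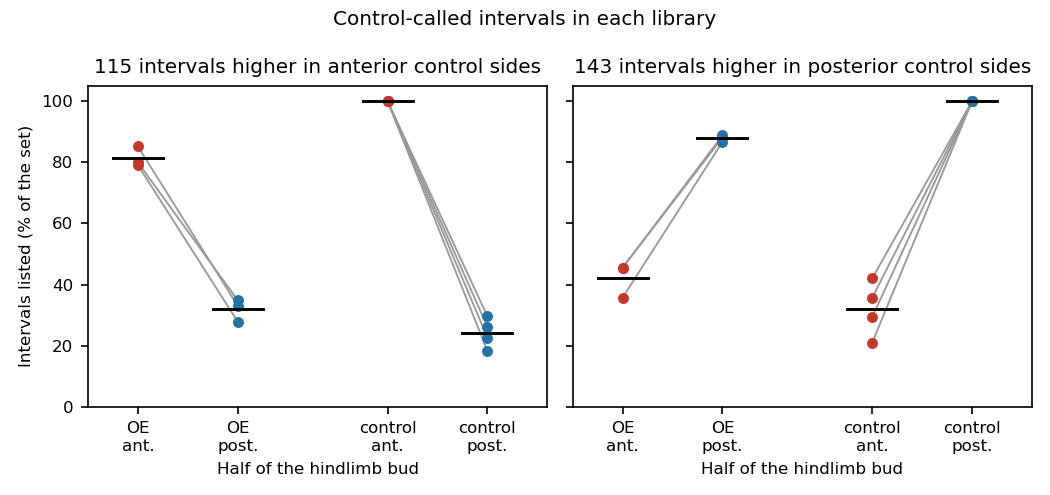
Share of the 115 anterior and 143 posterior control-called intervals that each library listed among its 30000 summits (vertical axis, percent). Red points are anterior and blue points posterior libraries, lines join the sides of an embryo and bars are group means. Overexpression sides lie at 79.1% to 85.2% against 27.8% to 34.8% for the anterior set and at 86.7% to 88.8% against 35.7% to 45.5% for the posterior set, while the controls' own sides are at 100% by the choice of the intervals.

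Because the overexpression libraries enter the spread that the control call uses, the reading was repeated with intervals chosen by presence in the control lists alone. There were 450 intervals listed in all 4 anterior and no posterior control library, and 359 of them (79.8%) were listed in more anterior than posterior overexpression libraries, 68 in equally many and 23 in fewer. For 535 intervals listed in all 4 posterior and no anterior control library, the counts were 436 (81.5%), 72 and 27. In 124 of the 450 the separation was complete under overexpression too (all 3 anterior, no posterior library), where 1.45% of all tested intervals, 802, met that rule. Of the 535, 126 were listed in all 3 posterior and no anterior library, a rule met by 935 intervals or 1.69% of all. With whole lists the same rules were met by 708 anterior and 1586 posterior intervals. In neither set did an interval have the complete opposite pattern under overexpression.

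Read the other way, 45 of the 55 anterior and 43 of the 57 posterior intervals called under overexpression had the same sign in control embryos, and 18 and 21 of them were called there as well. These 39 shared calls included the intervals at Rpia, Sgcz, Hif1a, Gcfc2 and Isl1, and sites near Cdh11, a mesenchymal cadherin, Efnb2, a membrane-bound ephrin ligand, and Klf6 among the posterior ones. Anterior ones included Kcnh7, Pappa, Zic1 and Rorb and sites near Nr2f1, a nuclear receptor, and Flrt2, a membrane guidance protein, where 2 neighbouring intervals were called. The median control difference was 0.248 for the 55 and −0.283 for the 57. In the plot of both differences, a row of points lies at a control difference near 0: 7 of the 55 and 11 of the 57 intervals were in none of the 8 control lists of 30000, and 3 and 6 of these were in a full control list, below rank 30000. These 18 could be tested only through the overexpression libraries that list them, and the 8 control libraries add no spread to their test.

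**Figure D2:**
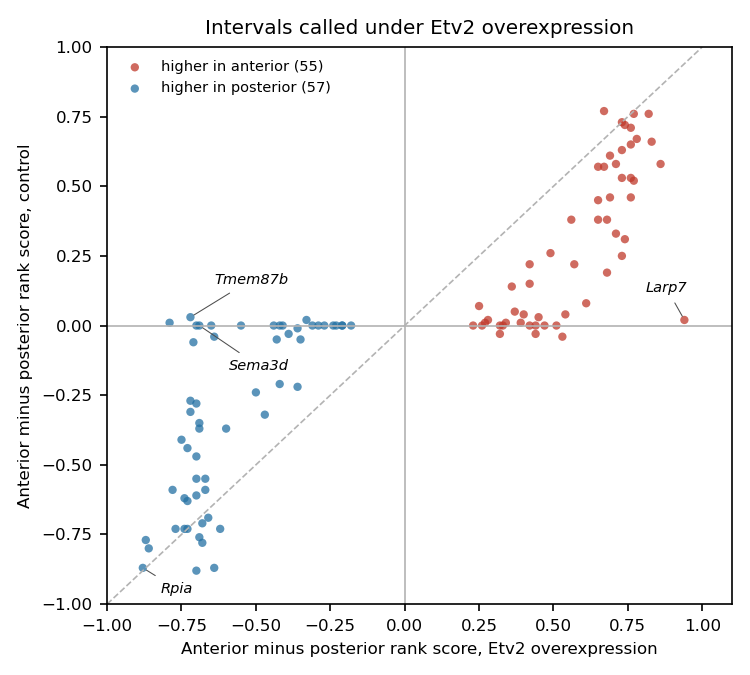
Anterior minus posterior difference in rank score for the 112 intervals called under Etv2 overexpression, with the overexpression difference on the horizontal and the control difference on the vertical axis. Each point is 1 interval, red higher in anterior (55) and blue higher in posterior sides (57), and the dashed line marks equal differences. Rpia lies near the line, while Larp7, Tmem87b and Sema3d have a control difference near 0.

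A test of the difference between the anterior-posterior differences of overexpression and control embryos called 2 of 55303 intervals (0.00362%; limma, adjusted p under 0.05), and 2607 had an unadjusted p under 0.05. Both were promoters with a displaced summit. At Larp7 the posterior overexpression libraries stood apart (interaction 0.92, limma adjusted p = 1.18e-05). At Gmnc, a regulator of multiciliated cells, the posterior control libraries did: rank scores were 0 there, 0.88, 0.81, 0.87 and 0.87 in anterior control libraries, and between 0.66 and 0.86 in all 6 overexpression libraries (interaction −0.79, limma adjusted p = 0.0416). With a summit accepted within 500 bp no interval was called for this difference, and 3056 of 64434 had an unadjusted p under 0.05. The next 2 by p did not pass the test. One was the Tmem87b promoter, where 2 of 3 anterior overexpression libraries had a summit within 500 bp. The other lay in an intron of Sema3d, a secreted guidance molecule, with 0.60, 0.71 and 0.75 in posterior overexpression libraries and no listing in the other 11 (interaction −0.69, limma adjusted p = 0.187). Both calls thus rest on the position of a summit. With the embryo as a block there was 1 call, Larp7, and the call at Gmnc was lost. Leaving out 1 overexpression library gave between 14 and 50 calls for this difference.

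To follow genes rather than single sites, the rank scores of all intervals nearest to a protein-coding start, within 500 kb of it, were summed to a locus score. Of 9575 loci, 8 were higher in anterior (0.0836%) and 19 higher in posterior overexpression sides (0.198%; limma, adjusted p under 0.05). The split between the directions varied: whole lists gave 0 anterior and 18 posterior calls, 15000 summits 18 and 18, and without posterior overexpression library 7 there were 0 and 5. In control embryos 36 loci were higher in anterior (0.376%) and 43 in posterior sides (0.449%). Of the 36, 32 had the same sign under overexpression and 4 were called, with a median difference of 1.1 in control and 0.69 in overexpression libraries. Of the 43, 40 had the same sign and 9 were called (medians −1.13 and −0.77). No locus was called for a difference between the 2 conditions with limma, and 446 had an unadjusted p under 0.05. With the embryo as a block 1 locus remained called, Naa11 (higher in posterior sides, limma adjusted p = 0.0429), and in the fit of the 6 libraries alone none, with 1007 of 9467 at an unadjusted p under 0.05. Leaving out 1 library in turn gave between 5 and 35 loci.

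The largest posterior locus difference was at Isl1 (chr13:116298281-116309689, minus strand), a LIM-homeodomain gene that acts upstream of SHH signalling in the hindlimb bud and is also a motor neuron gene. Its locus score over 25 intervals was 6.12, 7.51 and 6.95 in anterior and 9.51, 10.44 and 9.12 in posterior libraries of embryos 7, 9 and 10 (difference −2.83, SE 0.52, limma adjusted p = 0.0442). Control embryos gave 5.75, 6.62, 6.60 and 6.65 against 8.73, 9.62, 8.67 and 9.61, a difference of −2.75. The sides were apart by about the same amount in both conditions (interaction −0.07, limma adjusted p = 0.999). One of the 25 intervals, 166 kb from the start and printed above, was called by itself, with 0.20, 0.47 and 0 in anterior and 0.89, 0.82 and 0.89 in posterior overexpression libraries (limma adjusted p = 0.0445). With a summit accepted only within 100 bp, that difference turned to 0.158 (limma adjusted p = 0.866). At the Isl1 promoter the scores were 0.80, 0.85 and 0.76 against 0.95, 0.94 and 0.94, which did not pass the test (limma adjusted p = 0.0831).

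The other posterior loci named by rule were Nell2, Tgfbr2, Hs3st4, a heparan sulfate sulfotransferase gene, Eva1a, Lnpk, 1700018B08Rik and Gm11096, with differences from −2.27 to −1.29. Lnpk lies beside the HoxD cluster on the side of its digit enhancers. Its score was 1.73, 1.76 and 2.45 in anterior and 3.22, 3.46 and 3.40 in posterior overexpression libraries (difference −1.38, SE 0.25, limma adjusted p = 0.0442), with a control difference of −0.53. At Tgfbr2, a TGF-beta receptor gene, the scores were 2.6, 2.45 and 2.80 against 4.6, 4.36 and 3.78 (difference −1.64, limma adjusted p = 0.038), and the control difference was −0.16. The difference between the conditions did not pass the test at Tgfbr2 (interaction −1.48, limma adjusted p = 0.883). Among all 27, Nfil3, a bZIP factor gene, had the largest such contrast in p, with 0.76, 0.43 and 0.57 against 1.49, 1.56 and 1.67 under overexpression and a control difference of 0.34 in the other direction, and it did not pass either (interaction −1.33, limma adjusted p = 0.322). Nfil3 was singled out after its values were seen.

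The 8 anterior loci were Gm11232, Gnaz, Alcam, Csnk1g3, Rimklb, Col6a2, a collagen VI chain, Adora3, an adenosine receptor, and Bmp3, a BMP family ligand, with differences from 1.89 to 0.67. Alcam, an adhesion molecule of the immunoglobulin family, scored 3.88, 3.43 and 3.84 in anterior and 1.65, 1.85 and 2.07 in posterior overexpression libraries (difference 1.86, SE 0.34, limma adjusted p = 0.0417). Its control difference was 1.79. Bmp3 gave 1.5, 1.76 and 1.49 against 0.81, 0.97 and 0.97 (difference 0.67, limma adjusted p = 0.0442) and 0.73 in control embryos, but with whole lists its overexpression difference was −0.0398 (limma adjusted p = 1.0). Alcam, Bmp3, Gnaz and Rimklb were called in both conditions. Csnk1g3 (1.74 under overexpression, 0.44 in control embryos) was called under overexpression alone, which is no test of a difference between the conditions.

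The 4 markers of the axis did not all follow their names at the level of a locus. Ptch1, the SHH receptor and a direct hedgehog target, had the lower score in the anterior side of 3 of 3 embryos: 1.57, 3.02 and 1.94 against 3.10, 3.56 and 3.44 (difference −1.19, SE 0.41, limma adjusted p = 0.218), which did not pass the test. The Ptch1 interval with the largest difference, in an intron 39.1 kb from the start and printed above, was listed in no anterior overexpression library within 200 bp and at 0.48, 0.41 and 0.60 in posterior ones. Control embryos gave no anterior listing and 0.35, 0.55, 0.36 and 0.32. The interval did not pass the test in either condition (limma adjusted p = 0.101 and 0.108), and 1 anterior overexpression library had a summit within 500 bp. All 7 posterior libraries, and no anterior one within 200 bp, thus listed this intron.

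Hand2, the posterior bHLH factor that turns on Shh, had locus scores of 5.61, 8.49 and 6.57 in anterior and 6.72, 6.96 and 7.15 in posterior overexpression libraries (difference −0.05, limma adjusted p = 0.992), and the groups overlapped. An interval 226 kb from its start scored 0.38, 0.66 and 0.30 in anterior and 0.92, 0.82 and 0.96 in posterior libraries (difference −0.45, limma adjusted p = 0.212). In control embryos that interval passed the test, at a difference of −0.64 (limma adjusted p = 0.0334). A second interval, 187 kb from the start, went the other way, at 0.72, 0.78 and 0.82 in anterior and 0.48, 0.24 and 0.63 in posterior libraries (difference 0.33, limma adjusted p = 0.248). Gli3 scored 6.65, 7.75 and 6.82 against 8.03, 6.72 and 7.99 (limma adjusted p = 0.799). Alx4, with only 3 intervals, scored 0.20, 0.43 and 0.49 against 0.60, 0 and 0.18 (limma adjusted p = 0.855), where control embryos gave 1.13, 0.46, 0.65 and 0.84 against 0.34, 0.30, 0.34 and 0.31. The Alx4 sides overlapped under overexpression and not in controls, where the difference of 0.44 did not pass the test either (limma adjusted p = 0.202). The difference between the conditions did not pass the test (interaction −0.33, limma adjusted p = 0.987).

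**Figure D3:**
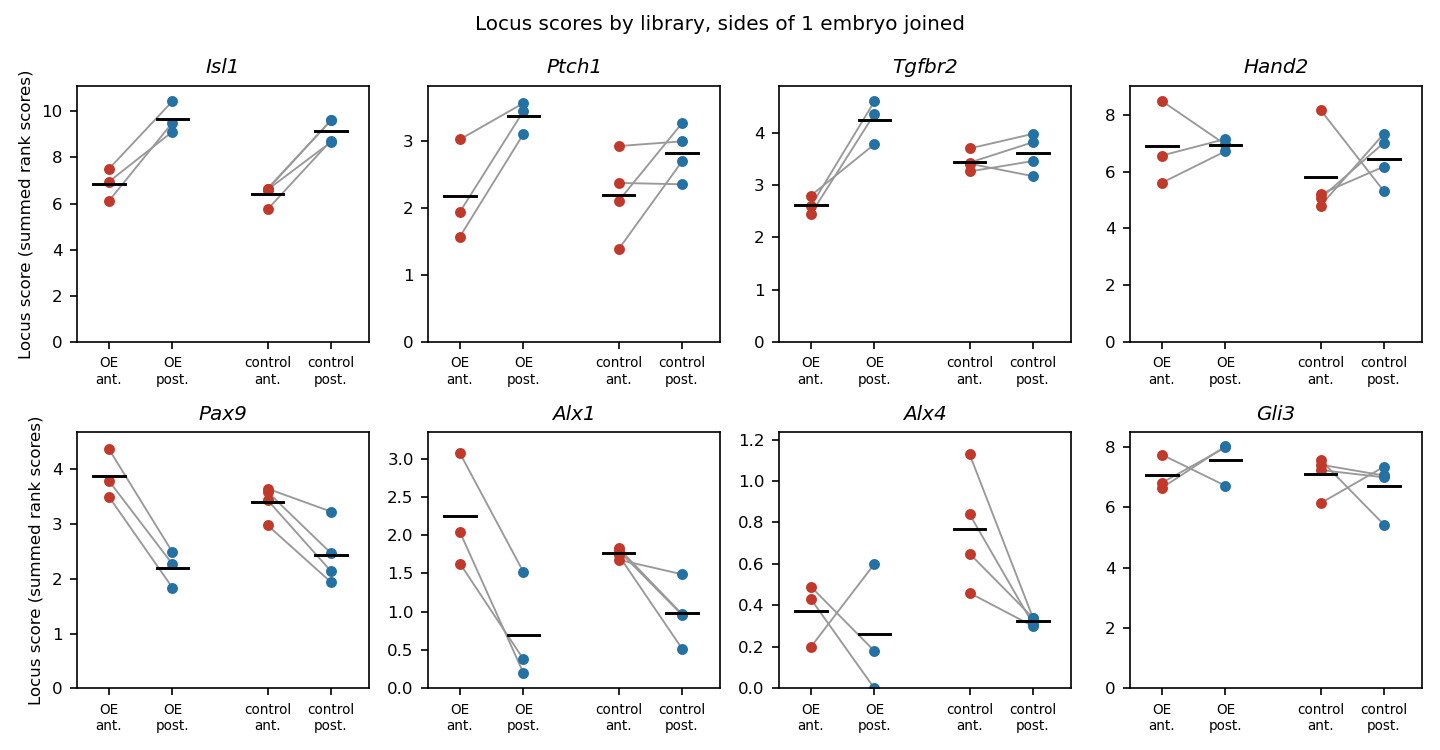
Locus scores (summed rank scores, vertical axis from 0) of 8 loci in the 14 libraries, red anterior and blue posterior, with lines joining the sides of an embryo and bars at group means. Isl1, Ptch1 and Tgfbr2 are higher in all 3 posterior overexpression libraries and Pax9 and Alx1 in all 3 anterior ones, while Hand2, Gli3 and Alx4 overlap.

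As a group, genes known for anterior limb bud expression leaned anterior. The gene lists here and below were chosen with earlier results of these data known. A lean therefore describes a list and is no independent test of it. Of 16 such genes, all tested, 13 had the higher locus score in anterior overexpression sides and the median difference was 0.48, against a median of 0.007 over all 9575 loci. Unadjusted, 6 were higher in anterior and 1, Bmp4, in posterior sides at p under 0.05 (background 6.22% and 6.51% of all loci), and none was called. In control embryos the median was 0.53, and 1 gene of the list, the homeobox gene Msx1, was called (difference 1.30, limma adjusted p = 0.0466). The summed score of the 16 loci was 41.1, 42.2 and 41.9 in anterior and 31.8, 32.4 and 33.6 in posterior overexpression libraries. Each embryo showed a similar gap. Pax9, a paired-box factor of anterior mesenchyme, came closest to the threshold with 4.37, 3.5 and 3.79 against 2.49, 1.84 and 2.27 (difference 1.69, SE 0.35, limma adjusted p = 0.059). Its printed interval, in an intron of the neighbouring Slc25a21, scored 0.59, 0.86 and 0.85 against 0, 0.20 and 0.32 (limma adjusted p = 0.102). At Alx1, an aristaless-like homeodomain gene, the locus scores were 2.04, 3.07 and 1.63 against 0.20, 1.52 and 0.38 (difference 1.55, limma adjusted p = 0.0888). Irx3, an Iroquois homeodomain gene, scored 3.32, 4.25 and 4.95 against 2.37, 1.86 and 2.63 (difference 1.89, limma adjusted p = 0.127). None of these 3 passed the test. Tbx18, a T-box gene, and Msx1 also had an unadjusted p under 0.05, with differences of 1.53 and 0.71.

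The lists of posterior and of hedgehog genes showed no such lean. Isl1, the locus with the largest posterior difference, was in neither list and was counted with the neural genes. Of 18 posterior limb bud genes, 10 had enough intervals to be tested, 4 with higher anterior and 6 with higher posterior scores, and none had an unadjusted p under 0.05 (median −0.04). Tbx3, a T-box repressor gene, differed by −0.77 (limma adjusted p = 0.611), and Grem1, the BMP antagonist of the posterior mesenchyme, by −0.56 (limma adjusted p = 0.684). Shh and Hoxd13 had no tested interval. The interval 1.05 kb from Hoxd12, printed above, was called, with 0.16, 0.26 and 0.29 in posterior overexpression libraries and no anterior listing (difference −0.24, limma adjusted p = 0.0366). The cutoff of 30000 summits matters there: with the full lists the difference was −0.445 and did not pass the test (limma adjusted p = 0.205). Of 22 SHH pathway and response genes 20 were tested, none was called, and the median difference was 0.08. Ptch1 and Foxf1, a forkhead gene of hedgehog-responsive mesenchyme, were the 2 with an unadjusted p under 0.05, both higher in posterior sides, while Gli1 differed by 0.18 (limma adjusted p = 0.783).

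The FGF and ETS genes leaned anterior without a call: of 19 tested of 22, 14 were higher in anterior sides, with a median difference of 0.31 (0.19 in control embryos), where 51.3% of all loci were higher in anterior sides. Dusp6, a phosphatase induced by FGF signalling, scored 8.59, 8.17 and 6.36 against 4.39, 5.44 and 5.66 (difference 2.54, SE 0.66, limma adjusted p = 0.12). Spry1, another feedback inhibitor of FGF signalling, gave 2.16, 1.88 and 1.97 against 1.34, 0.83 and 1.26 (difference 0.86, limma adjusted p = 0.194). Elf1, an ETS factor gene, was the third at an unadjusted p under 0.05 in that direction (6.22% of all loci) and Fgf9, an FGF ligand, the 1 in the other (6.51% of all loci). Markers of other cell types were counted in the same way. Of 24 endothelial genes 12 were tested, none with an unadjusted p under 0.05, and their summed scores were 21.4, 18.4 and 21.2 in anterior and 20.7, 19.7 and 21.2 in posterior sides. Cdh5, the endothelial cadherin, differed by −0.16 and Tal1, a blood and endothelial factor, by 0.17 (limma adjusted p = 0.965 and 0.635). Of 12 blood cell genes 4 were tested, all with lower anterior scores (median −0.28) and none at an unadjusted p under 0.05. Among the 5 tested neural genes Isl1 was the 1 that was called, among 9 tested ectoderm genes Sp8 and Dlx6 passed the unadjusted threshold in opposite directions, and among 5 tested muscle progenitor genes (4 higher in anterior sides, median 0.37) Myod1 did, with 0.40, 0.30 and 0.48 against 0, 0 and 0.08 (limma adjusted p = 0.199). Of 15 tested limb mesenchyme genes 10 were higher in anterior sides (median 0.23), and their summed scores were 36.8, 36.1 and 42.1 in anterior and 35.0, 33.7 and 36.9 in posterior overexpression libraries, higher in the anterior side of each embryo like those of the anterior list. Among them Msx1 and the bHLH gene Twist1 were higher in anterior and Zfhx4 in posterior sides at an unadjusted p under 0.05. In these bulk lists, fewer cells of a type and less open chromatin per cell cannot be told apart.

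At the ZRS, which lies in an intron of Lmbr1 on chromosome 5, a summit was listed in both sides of every overexpression embryo. Its ranks were 21440, 20176 and 23618 in the anterior lists of embryos 7, 9 and 10 and 11518, 23164 and 23812 in the posterior lists. Rank scores averaged 0.28 ± 0.06 and 0.35 ± 0.23 (SD, n = 3; exact permutation test, two-sided, p = 0.9), so the sides did not differ beyond their spread. Among control embryos the ZRS was in 1 of 4 anterior and 3 of 4 posterior lists of 30000, and in 2 of 4 and 4 of 4 full lists. Around Shh itself, within 5 kb of the gene, no anterior overexpression list had a summit at all, while the full posterior lists of embryos 7 and 10 had one, at ranks 34967 and 35192. The full lists of 3 of 4 anterior and 4 of 4 posterior control libraries had one too, and these lists differ in length. The single interval at Etv2 was among the last of the 30000 in anterior embryos 9 and 10, at ranks 29890 and 28564, and at rank 25305 in posterior embryo 9, and in none of the other 3 overexpression lists of 30000. Among control lists of 30000, it was in those of anterior embryos 1 and 4, at ranks 18932 and 23406, and in no posterior one. Both control ranks stood higher in the list than any under overexpression. A summit at Etv2 cannot be assigned to the native gene or the transgene.

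The last comparison asked which short sequences mark the sites open in each side. All words of 6 bases, counted on either strand, were scored in each library over its listed intervals more than 1 kb from a start. The deviation of a word is the number of listed intervals that hold it, minus the number expected from their GC content, divided by the expected number. Words that resemble homeodomain and posterior HOX sites were among those with the largest differences. Under overexpression 155 words were higher in anterior (7.45%) and 122 higher in posterior sides (5.87%; limma, adjusted p under 0.05). With the embryo as a block the counts were 153 and 112, and in the 6 libraries alone 102 and 73. In control embryos 297 (14.3%) and 204 (9.81%) words were called. All 155 and all 122 had the same sign in control embryos, against 80.7% of all words, 118 and 106 of them were called there, and no word passed the test of a difference between the conditions (56 had an unadjusted limma p under 0.05).

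TCGTAA had the largest posterior difference, with deviations of −0.112, −0.0852 and −0.147 in anterior and 0.157, 0.105 and 0.129 in posterior libraries of embryos 7, 9 and 10 (difference −0.245, SE 0.0295, limma adjusted p = 0.000888). CTCGTA followed at −0.194, while both ATAAAA and CGTAAA were at −0.186. Words that share TCGTAA or ATAAAA in part resemble the sites of posterior HOX proteins, and they overlap each other, so that they are not separate observations. On the anterior side CGTCGA (0.137), AATTAG (0.135), AATTGG (0.123) and CATTAG (0.119) led. AATTAG, which holds the TAAT core of homeodomain sites on one strand, deviated by 0.0910, 0.117 and 0.126 in anterior and −0.0303, −0.0358 and −0.00511 in posterior libraries (SE 0.0249, limma adjusted p = 0.00355). The sides did not overlap for these 8 words, which were chosen for their large differences. Over all words of 6 bases, 31.4% had no overlap between the overexpression sides, in either direction.

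**Figure D4:**
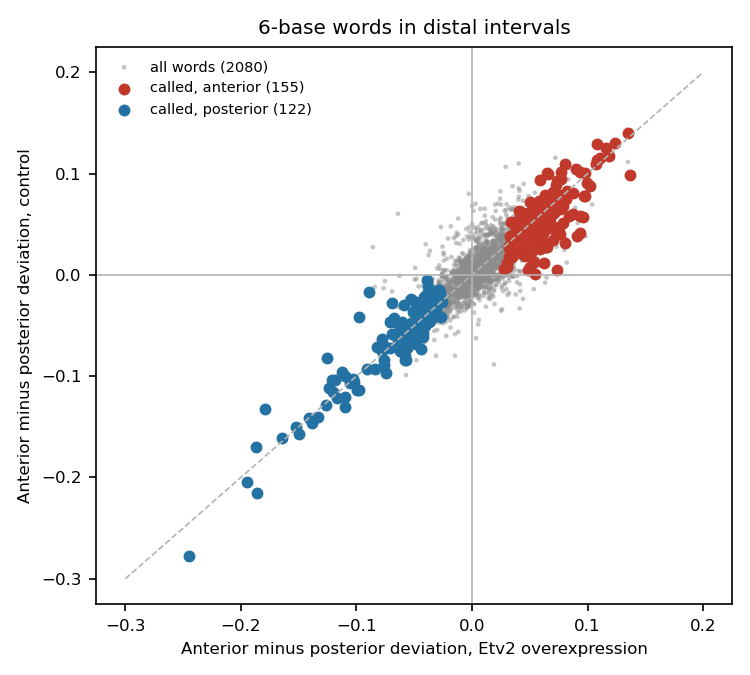
Anterior minus posterior difference in deviation for words of 6 bases, under Etv2 overexpression (horizontal axis) and in control embryos (vertical axis). Each point is a word, red for the 155 called as higher in anterior and blue for the 122 called as higher in posterior overexpression sides, and the dashed line marks equal differences. All 277 called words have the same sign on both axes.

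Some of these words were also counted in the called intervals. Those taken above for their large differences were chosen on the same overexpression libraries that gave the calls. Their counts are therefore no independent test. ATAAAA was in 24 of the 57 posterior intervals (42.1%) and 2 of the 55 anterior ones, and in 16.5% of all tested intervals of the same length. CAATAAA was in 10 of 57 (17.5%) and 2 of 55, against 5.37% of all. AATTAG was in 11 of the 55 anterior intervals (20.0%) and 2 of the 57 posterior ones, against 10.1% of all, and TAATTA in 4 and 1, against 7.56%. TCGTAA, with the largest difference over the listed intervals, was in 1 anterior and no posterior called interval, against 1.90% of all. Called intervals were also poorer in GC (median 47.5% in anterior and 44.5% in posterior ones, 52.0% over all), and these counts are not corrected for it.

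Words of known factors were compared one by one (12 words, exact permutation tests over 3 against 3 libraries, two-sided, smallest p = 0.1, 0.24 after adjustment over the 12). Of these, 5 did not overlap between the sides; over all words of 6 bases the share without overlap was 31.4%. The GLI word GACCACCCA, the element through which hedgehog targets respond, deviated by −0.268, −0.425 and −0.326 in anterior and by −0.0362, 0.262 and 0.0649 in posterior libraries (−0.34 ± 0.0791 against 0.097 ± 0.152, SD, n = 3, exact permutation p = 0.1). It was held by 0.163% and 0.275% of the listed distal intervals on average, so its deviations rest on few sites. The controls showed −0.262 ± 0.0316 against 0.0416 ± 0.0535 (SD, n = 4, exact permutation p = 0.0286, 0.0858 adjusted over the 12). Fewer anterior sites than expected thus held the GLI word in all 7 embryos.

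The HOX13 word CAATAAA deviated by −0.0675 ± 0.0586 in anterior and 0.177 ± 0.0292 in posterior overexpression sides. The homeodomain word TAATTA went the other way, at 0.107 ± 0.0194 against 0.0229 ± 0.0152, and so did the T-box word AGGTGTGA, at 0.0856 ± 0.0556 against −0.169 ± 0.0262 (SD, n = 3 each, exact permutation p = 0.1 for each of the 3). AP-1 (TGANTCA) was separated by little, 0.00516 against −0.0268. The ETV2 word AGGAAGT overlapped between the sides: 0.00428, 0.0865 and 0.110 in anterior and −0.0162, 0.0785 and 0.0771 in posterior libraries (exact permutation p = 0.5, n = 3). Within an embryo the anterior value was the higher one in 3 of 3 overexpression and 3 of 4 control embryos. The remaining 6 words, for HAND2, the ETS core, GATA, MEIS, TEAD and CTCF sites, overlapped between the sides as well. Within overexpression embryos the anterior value was the higher one in 3 of 3 for TEAD and CTCF, in 2 of 3 for the ETS core and in 1 of 3 for MEIS, and the lower one in 3 of 3 for GATA. In control embryos it was higher in 2 of 4 for TEAD and CTCF and 4 of 4 for the ETS core, and lower in 4 of 4 for MEIS and GATA. The HAND2 E-box word CATCTG was lower in anterior sides of all 4 control embryos (0.00108 ± 0.0319 against 0.0565 ± 0.0113, SD, n = 4, exact permutation p = 0.0286, 0.0858 adjusted over the 12) and of 2 of 3 overexpression embryos (0.0336 ± 0.0484 against 0.0663 ± 0.0173, SD, n = 3, exact permutation p = 0.4).

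**Figure D5:**
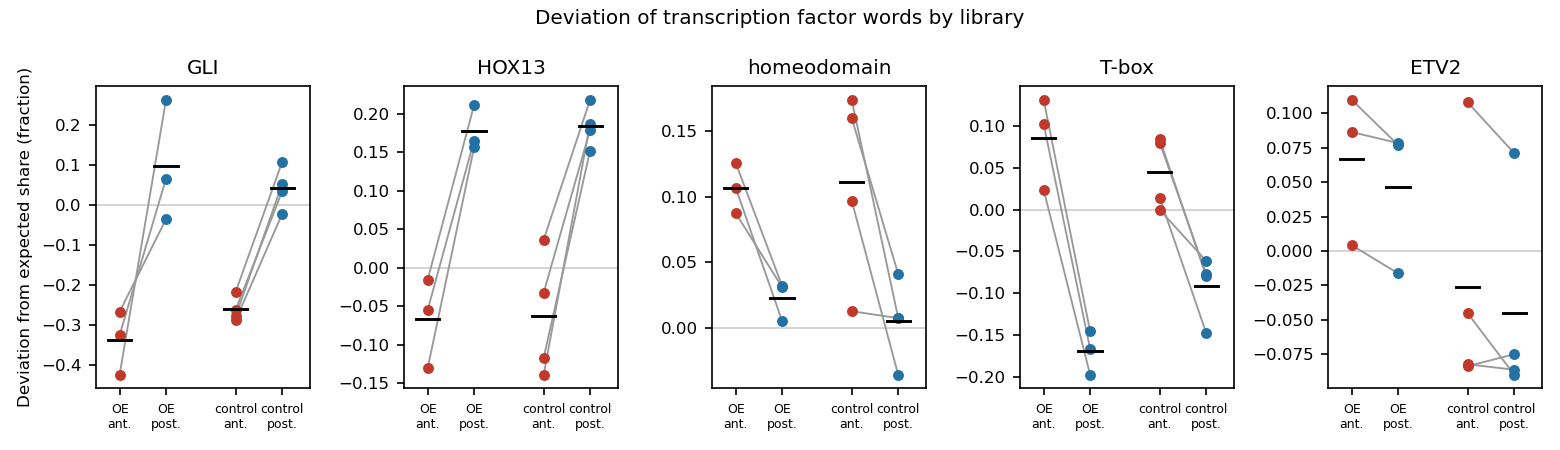
Deviation of 5 factor words from the number expected at the same GC content (vertical axis, fraction, scaled per panel) in the 14 libraries, red anterior and blue posterior, with lines joining the sides of an embryo and bars at group means. GLI and HOX13 words are lower and homeodomain and T-box words higher in all 3 anterior overexpression libraries, and the ETV2 word overlaps.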

How the data were processed

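ATAC-seq libraries were made by the authors from the anterior and posterior sides of the hindlimb bud, which were processed separately. Per the labels and the study's methods, reads were mapped to mm10 with Bowtie2 2.2.4, duplicates were removed, ends were shifted for the Tn5 cut, and MACS2 (version not given in the sources used here) called peaks in each library by itself. The deposited summit lists give a −log10 q-value per summit, down to about 1.30, or q = 0.05. No read counts were used, so these values, which grow with depth, served as ranks within a list.

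From each list the 30000 highest summits were taken. Summits of 14 libraries were merged to 123188 intervals of 200 bp, and an interval was listed where a summit lay within 200 bp of its centre and tested where at least 2 libraries listed it. Rank scores, locus scores (at least 2 intervals within 500 kb of a GENCODE M21 start) and word deviations (10 GC bins) were fitted with limma 3.58.1 in R 4.3.3, with a mean for each of 4 groups, and Benjamini-Hochberg adjusted. The spread is shared by all 14 libraries. Single values were compared by exact permutation. Python 3.11.15, numpy 2.4.6, pandas 2.3.3, scipy 1.17.1 and pysam 0.24.0 were used.

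Sides of 1 embryo carry 1 number and were paired on that ground. Deviations from group means correlated at 0.0202 to 0.0438 within overexpression embryos and at 0.00385 to 0.0444 within control embryos. The named features were the 8 intervals (under 50% masked) and 8 loci with the largest differences per direction past the threshold, 4 interactions, 4 words per direction, 12 factor words and fixed marker genes. Some genes of the lists are counted but not reported by name here. The Isl1 and Hoxd12 intervals were added as called intervals of listed genes. The members and gene lists were chosen with earlier results of these data known. Alternatives were the list length, the reach of a summit, the filter, the pairing, other scalings and each library left out. A reach of 500 bp and the choice by control lists alone were added after the data were seen.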

Additional observations from a re-analysis of the deposited data

Results flagged for a closer look

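At 2 promoters the anterior-posterior difference itself differed between overexpression and control embryos by the limma interaction test. It was 0.92 larger in rank score at Larp7 under overexpression and −0.79 at Gmnc. In both, the libraries without a listed summit had one within 500 bp, and neither difference passed the test with that reach.

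In groups of 4 control libraries, 6 values stood far from the other 3. The anterior library of control embryo 1 had 17 summits on chromosome Y, where the other 3 had 54 to 56, its posterior side had 18, and the 6 overexpression libraries had 15 to 21. Within the lists of 30000, that library also had the 1 ZRS summit among anterior controls (rank score 0.17). Posterior control embryo 3 was the 1 posterior control without a ZRS summit in these lists (0.0). The Hand2 locus score was 8.18 in anterior control embryo 3. The HAND2 E-box word deviated by 0.0733 in posterior control embryo 4 and the ETV2 word by 0.0712 in posterior control embryo 1. The anterior side of embryo 1 was not among the 6 for the ETV2 word. Its value there was 0.108, against −0.0823, −0.0837 and −0.0453 in the other anterior controls. For this word and for chromosome Y summits, both sides of control embryo 1 thus lay within the range of the overexpression libraries. Posterior control embryos 2 to 4 had 53, 63 and 67 chromosome Y summits, so this count separated the conditions except for control embryo 1. Whether it reflects the sex of the embryos, which the study did not determine, was not tested. Comparisons between the conditions cannot be fully told apart from this difference. The rule that marked the 6 values has a nominal rate of about 1 in 20 groups, which was not estimated from these data. It was applied to 58 groups of 4. Groups of 3 overexpression libraries were not examined in this way.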

How the results depend on the processing

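The counts of calls depended on the processing. With 15000 summits there were 37 interval, 108 word and 720 all-or-none calls under overexpression, 34 interval calls in controls, 1 interaction, a GC difference of 0.083 and a Grem1 locus difference of 0.135. Whole lists gave 1097 control intervals, 519 words, a GC difference of 0.61, and −0.0398 at Bmp3 and −0.225 at Alx4. A reach of 100 bp gave 35 and 26 intervals, 0 interactions (2247 at an unadjusted limma p under 0.05), 0 loci, 0.158 at the Isl1 interval and an interaction of −0.233 at Larp7. A reach of 500 bp, chosen after seeing the data, gave 189 and 566 intervals, 0 interactions, −0.00649 at Larp7, −0.0444 at the Ptch1 interval 61.9 kb away, and interactions of −0.0274 at Larp7 and 0.000322 at Gmnc. Intervals in at least 1 library gave 226 calls. In at least 4, there were 486 control calls, 1 interaction and 0.196 at Hand2. The replicate block gave 2 overexpression intervals, 1 of them among the 112 reported, and 1 control interval, 1 interaction and 1 locus. Overexpression libraries alone gave 0 intervals, 0 loci and 175 words, and control libraries alone 0 intervals. Quantile-normalized log2 values, which are on another scale than rank scores, gave 31 intervals and 7 loci. On that scale the locus differences were 9.24 at Hand2 and 4.32 at Gli3, and neither passed the test (limma adjusted p = 0.549 and 0.807). Starts within 100 kb gave 6 loci and 0.339 at Cdh5.

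Of control-called intervals 88.0% had the same sign under overexpression. This was 81.7% with whole lists, 80.8% at 100 bp, 94.2% at 500 bp, 82.6% with quantile normalization, 100% of the 1 interval left by the block, and 80.7% for intervals chosen by control lists alone. Leaving out 1 library gave 69.8% to 86.9%, 41 to 390 overexpression and 47 to 302 control intervals, 1 to 50 interactions, 5 to 35 loci and 162 to 302 words. With 1 library left out, the locus difference of Hand2 lay between −0.854 and 0.589 (above 0 without OE_anterior 7, OE_anterior 10 or OE_posterior 10, at 0.589, 0.106 and 0.0513), that of Cdh5 between −0.479 and 0.396 (0.396 and 0.256 without OE_anterior 9 and OE_posterior 10), that of Alx4 between −0.0151 and 0.284 and that of Gli1 between −0.0265 and 0.321, both lowest without OE_posterior 9. The cause of these shifts was not tested. Named intervals kept their direction in 614 of 617 alternatives, loci in 623 of 637 and words in 176 of 176, while 128, 241 and 3 of these no longer passed the threshold. Part of this agreement was fixed in advance. Leaving out a control library, fitting overexpression libraries alone or blocking by embryo cannot change an overexpression difference, only its spread.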
